A study of Homo sapiens with 12 samples.

Results

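A set of 10 genes that brake or report signalling through the kinase ERK was followed in the 12 count columns of a gene table from HCC1954, a breast carcinoma line that carries an ERBB2 amplification. They were chosen by name, with earlier results of these data known. DUSP4, DUSP5 and DUSP6 encode phosphatases, SPRY1, SPRY2 and SPRY4 encode sprouty proteins, SPRED1 and SPRED2 encode sprouty-related proteins, and ETV4 and ETV5 encode ETS transcription factors. All 10 names were found among the 56269 rows of the table, each on 1 row. Per the labels, HCC1954 cultures received a combination, 1 µM lapatinib, 1 µM of a compound given only as SNXB, or DMSO, for 24 hours, with 3 replicates in each of the 4 groups. Lapatinib inhibits the receptor kinases EGFR and ERBB2. The labels do not say what SNXB binds, nor what the combination held and at which dose.

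The 12 columns carry the names S13 to S24, and 0 of these names stand in any label. No column was therefore assigned to a treatment, and nothing below compares treatments. That these columns are the 12 labelled cultures rests on the table being named for HCC1954 and on the equal number, not on any label. The libraries are given by their column names. Values are described over the 12 libraries by the lowest, the median and the highest, with no mean, no SD and no test, since which libraries replicate each other is not known. Libraries held 9289353 to 12219397 counted fragments and 20720 to 24681 genes with a count, and their 50 most counted genes took 11.0% to 13.5% of the counts.

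ERK is the last kinase of the RAS-RAF-MEK-ERK cascade, which receptors such as EGFR and ERBB2 switch on. Active ERK induces genes whose products then dampen the same cascade. Dual-specificity phosphatases remove the activating phosphates from ERK: DUSP6 acts in the cytoplasm, and DUSP4 and DUSP5 act in the nucleus. Sprouty proteins interfere with signalling from receptors to RAS and RAF, and SPRED proteins bring the RAS inhibitor neurofibromin to the membrane. ETV4 and ETV5 belong to the PEA3 group of ETS factors, which bind DNA at a GGAA core, and they are held down by the repressor CIC, which ERK signalling inactivates.

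Promoters of DUSP6, SPRY4 and SPRY1 are shown because DUSP6 and SPRY4 had the same 6 lowest libraries, as described below, whereas SPRY1 did not. Each runs from 250 bases before to 50 bases after a RefSeq start (GRCh38.p14), 5′ to 3′ on the gene's strand. Capitals mark the ETS core, GGAA or its complement TTCC. The positions are chr12:89352452-89352751 on the minus strand for DUSP6, chr5:142324198-142324497 on the minus strand for SPRY4 and chr4:123398136-123398435 on the plus strand for the downstream of 2 listed starts of SPRY1.
DUSP6: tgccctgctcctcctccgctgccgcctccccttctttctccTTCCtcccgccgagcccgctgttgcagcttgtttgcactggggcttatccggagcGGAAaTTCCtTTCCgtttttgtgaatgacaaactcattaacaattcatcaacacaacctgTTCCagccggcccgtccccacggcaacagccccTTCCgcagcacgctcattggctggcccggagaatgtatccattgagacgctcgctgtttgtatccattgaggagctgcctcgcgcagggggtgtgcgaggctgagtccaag
SPRY4: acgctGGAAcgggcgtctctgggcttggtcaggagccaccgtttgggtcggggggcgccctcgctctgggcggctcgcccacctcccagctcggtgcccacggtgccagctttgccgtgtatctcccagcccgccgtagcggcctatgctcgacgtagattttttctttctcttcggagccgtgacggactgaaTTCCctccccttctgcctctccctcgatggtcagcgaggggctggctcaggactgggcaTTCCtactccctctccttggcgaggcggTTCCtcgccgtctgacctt
SPRY1: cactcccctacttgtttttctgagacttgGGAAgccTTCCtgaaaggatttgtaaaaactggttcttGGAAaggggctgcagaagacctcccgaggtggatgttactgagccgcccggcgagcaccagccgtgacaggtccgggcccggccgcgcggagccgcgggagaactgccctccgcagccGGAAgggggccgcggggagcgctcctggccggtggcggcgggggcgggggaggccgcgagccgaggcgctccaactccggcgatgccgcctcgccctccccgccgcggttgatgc

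The ETS core occurred 6 times in the DUSP6 window, 4 times in the SPRY4 window and 4 times in this SPRY1 window. A core is common: 95.5% of the 35116 promoter windows in the table held at least 1 on either strand, with a median of 3. The longer ETS motif CCGGAAG was present 1 time in the SPRY1 window shown, 67 bases before the start, and it stood in 10.3% of all windows. It overlaps a GGAA core, so that match is counted under both motifs. For CIC, only the octamers TGAATGAA and TGAATGGA were searched. They were present in 1.65% and 1.03% of all windows and had 0 matches in these 3 windows. Other forms of the CIC octamer, such as those with C in place of G as the second base, were not searched. The DUSP6 window printed above holds such a form of TGAATGGA on the other strand, in the letters tccattga. The 0 matches therefore cover the searched forms only, and these windows cannot be called free of CIC sites. For AP-1 the loose pattern TGANTCA was used, which takes any base at N. It (7.71% of all windows) and the cAMP response element TGACGTCA (1.85%) had 0 matches there too. Promoters were listed for 6 of the 10 genes, namely DUSP6, SPRY1, SPRY2, SPRY4, SPRED1 and SPRED2, with several starts for some. Their GC content was 39.3% to 76.3%, beside a median of 58.7% over all windows. The only other matches to the longer motifs that were searched were at SPRED2, where the downstream of 2 windows matched TGANTCA 2 times. The letters were TGACTCA 6 bases before the start and TGAATCA 34 bases after it.

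The level of most of these genes differed widely between libraries. CPM, the count of a gene scaled to a common library total, ranged by at least 1 log2 unit, a 2-fold difference between the highest and the lowest library, in 9 of the 10 genes. Among the 14279 genes with a mean of at least 1 CPM, which all 10 passed, 48.2% had such a range. A range of at least 2 log2 units, or 4-fold, was reached by 8 of the 10, against 16.8% of the tested genes. The median range was 2.74 log2 units over the 10 genes and 0.96 over all tested genes. In all 10 genes, the exact 95% Poisson intervals of the highest and the lowest library were apart, as they were in 94.7% of the tested genes. These intervals cover counting error only, and fragments amplified by PCR without molecular identifiers are not independent molecules. In a bulk library, fewer cells that transcribe a gene and less RNA of it per cell cannot be told apart.

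**Figure D1:**
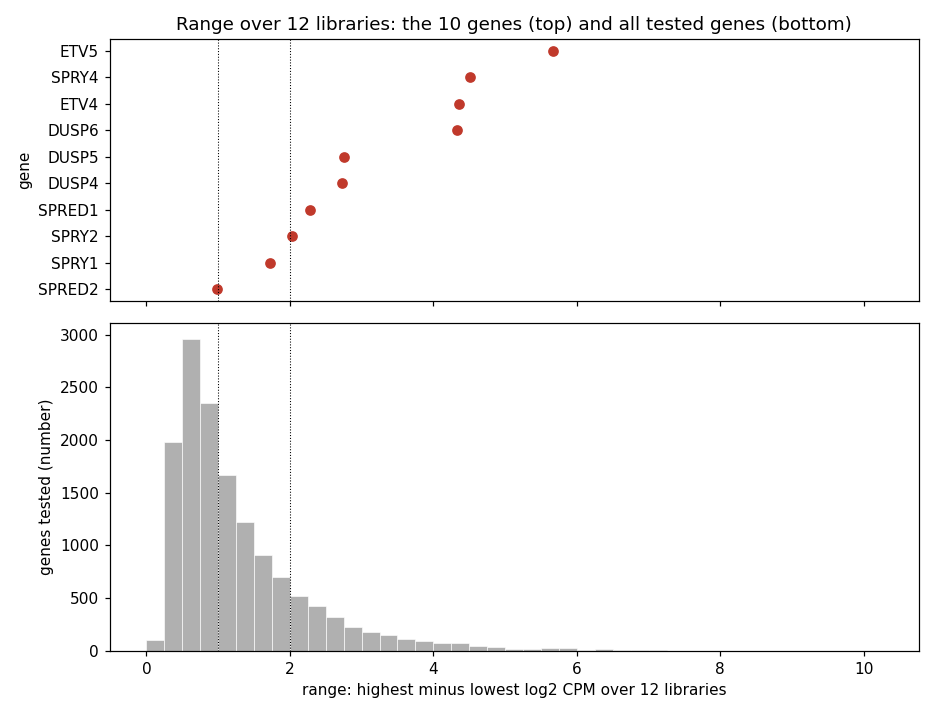
The top panel shows the range of each of the 10 genes (highest minus lowest log2 CPM over 12 libraries), and the bottom panel shows how many of the 14279 tested genes had each range, in steps of 0.25 log2 units. Dotted lines mark 1 and 2 log2 units; SPRED2 lies just below the first line at 0.99 and ETV5 is the farthest right at 5.66.

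Of the phosphatases, DUSP6 varied most. DUSP6, the cytoplasmic ERK phosphatase, lies at chr12:89347232-89353271 (minus strand, GRCh38, coordinates of the deposited table). It had 22.1 CPM in S13, 41.9 in S14, 2.47 in S15, 5.07 in S16, 24.3 in S17, 47.7 in S18, 3.14 in S19, 8.72 in S20, 37.7 in S21, 50.4 in S22, 5.38 in S23 and 5.06 in S24. S15, S16, S19, S20, S23 and S24 were low and the other 6 libraries were high, with no value between 8.72 and 22.1. The highest library held 557 DUSP6 counts and the lowest held 28, a range of 4.32 log2 units or 20.02-fold. By range it stood at percentile 98.1 of the tested genes.

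DUSP4 encodes a nuclear phosphatase that also acts on other MAP kinases, and its row lies at chr8:29333064-29350668 (minus strand). It had 29.2 CPM in the lowest library, S15, a median of 95.1 and 194 in the highest, S22. DUSP5, the nuclear phosphatase that also holds ERK in the nucleus, lies at chr10:110497838-110511544 (plus strand). Its level was 21.9 CPM in S15, 46.6 at the median and 148 in S22. Their ranges were 2.73 log2 units (6.64-fold) for DUSP4 and 2.76 (6.76-fold) for DUSP5. S15 and S19 were the lowest libraries for DUSP4 and for DUSP5, as for DUSP6, but the rest of the order differed. S24 held 115 CPM of DUSP4 and 83.4 of DUSP5, above the median of each, while it held the third lowest level of DUSP6. S13 held 72.9 CPM of DUSP4 and 31.9 of DUSP5, below the median of each, and a DUSP6 level above the median.

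DUSP6 was compared with DUSP4 per base of exon within each library, where library depth cancels. DUSP6 had 0.475 times the DUSP4 level in S13, 0.550 in S14, 0.406 in S17, 0.504 in S18, 0.425 in S21 and 0.407 in S22. The ratio was 0.133 in S15, 0.107 in S16, 0.133 in S19, 0.142 in S20, 0.153 in S23 and 0.0686 in S24. The highest ratio was 8.02 times the lowest. The ratio of DUSP5 to DUSP4 moved less, from 1.21 in S13 to 2.13 in S22, a factor of 1.75. DUSP6 to DUSP5 spanned more, from 0.0342 in S24 to 0.391 in S13.

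DUSP6 carries a limit that the other 9 genes hardly have. Of its 4632 exonic bases, 1875 also lie in the exons of a feature on the opposite strand that carries only a clone name and had 0 to 5 counts per library. ETV4 shared 1.89% of its exonic bases with DHX8 and ETV5 shared 2.83% with DGKG, and the other 7 genes shared none. The header of the count table shows that fragments were counted without regard to strand and without letting a fragment count for several features, so those on shared bases may be missing from the DUSP6 count. The median level of DUSP6 was 13.85 TPM (counts per exonic base, scaled to a common sum over genes) with all exonic bases and 23.3 TPM with the unshared ones. Ratios between libraries for DUSP6 itself do not depend on this length. The per-base ratios of DUSP6 to DUSP4 and to DUSP5 given above used all 4632 bases, so each of them may be too low.

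**Figure D2:**
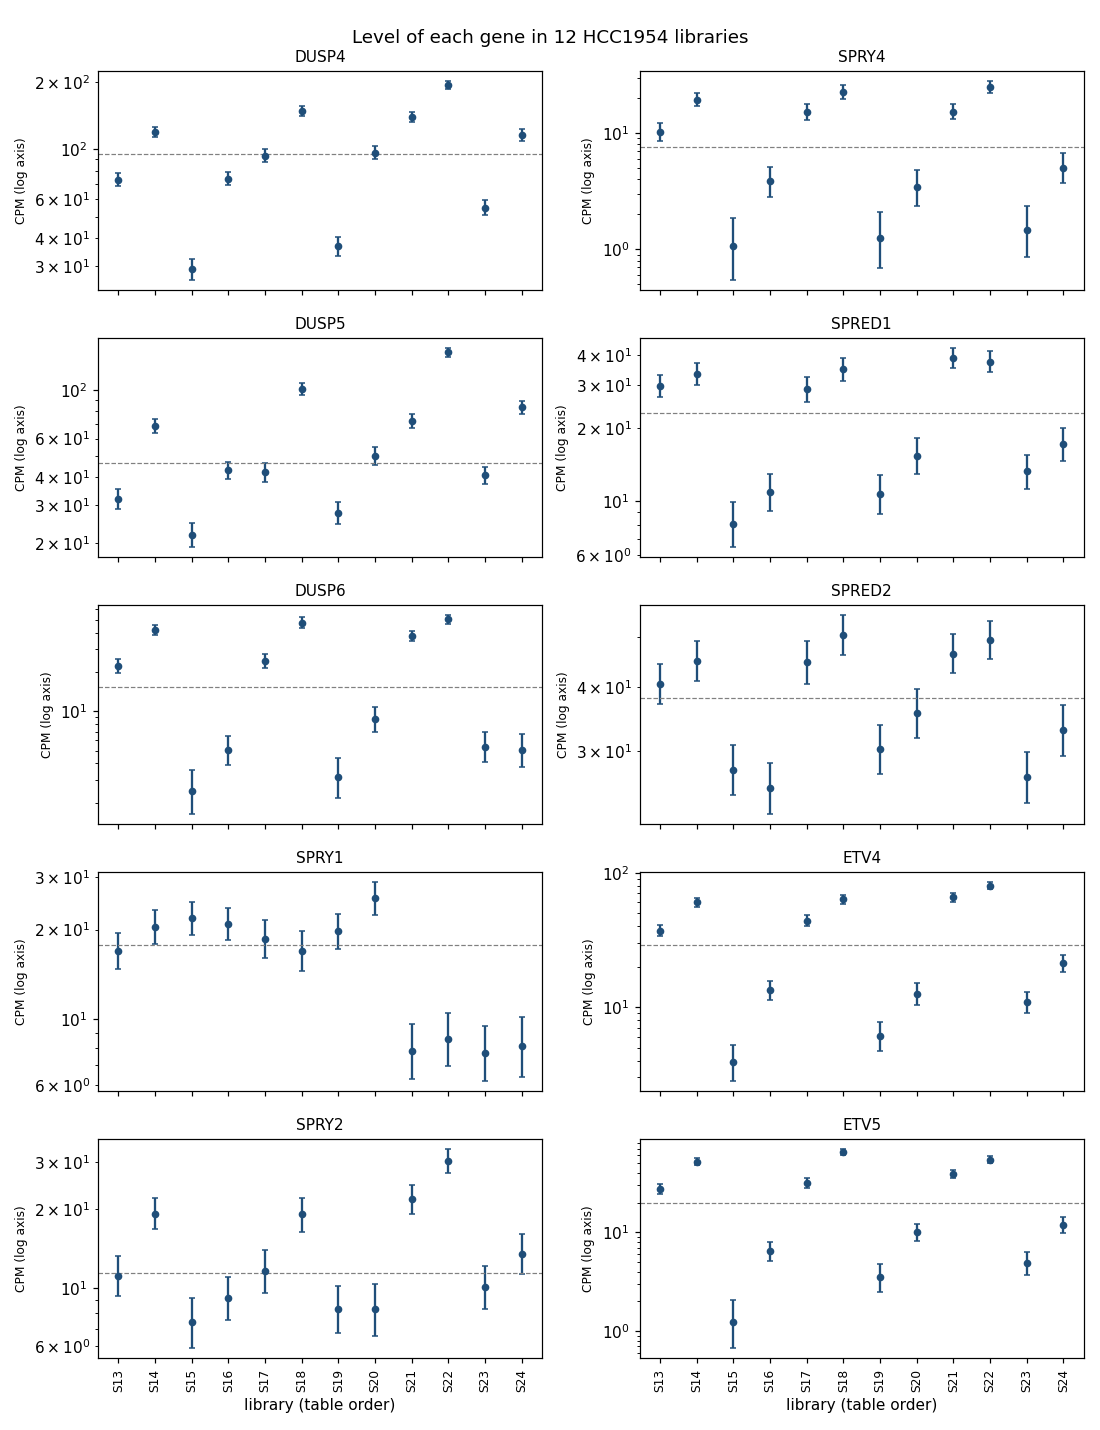
Each panel shows the CPM of a gene on a log axis in the 12 libraries, in table order; points are libraries, bars are exact 95% Poisson intervals (counting error only), and the dashed line is the median. DUSP6, SPRY4, ETV4 and ETV5 fall to a few CPM in S15 and S19, whereas SPRY1 is lowest in S21 to S24.

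SPRY2 and SPRY4 put 87.9% of library pairs in the same order, and SPRY1 departed from both. SPRY4, at chr5:142310427-142326455 (minus strand), had 10.2 CPM in S13, 19.4 in S14, 1.06 in S15, 3.85 in S16, 15.2 in S17, 22.5 in S18, 1.25 in S19, 3.44 in S20, 15.3 in S21, 25.1 in S22, 1.47 in S23 and 5.06 in S24. The same 6 libraries were lowest as for DUSP6, and among them S15, S19 and S23 lay apart below 1.5 CPM, at 12 to 17 counts. The range was 4.51 log2 units, or 22.7-fold, at percentile 98.4 of the tested genes. With 12 counts in S15, the 95% interval of that level runs from 0.548 to 1.85 CPM, so the size of the fold is only loosely fixed.

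SPRY2, the family member best known for blocking growth factor signalling to ERK, lies at chr13:80335976-80340951 (minus strand). It was lowest in S15 with 7.42 CPM, had a median of 11.4 and was highest in S22 with 30.4. Its range of 2.03 log2 units rests partly on S22: without that library it was 1.55, below the limit of 2. The libraries S14, S18, S21 and S22 held 19.03 to 30.4 CPM, and the other 8 held 7.42 to 13.5.

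SPRY1 went another way. SPRY1, at chr4:123396795-123403760 (plus strand), had 16.97 CPM in S13, 20.5 in S14, 21.8 in S15, 20.9 in S16, 18.7 in S17, 16.96 in S18, 19.7 in S19 and 25.5 in S20. In S21, S22, S23 and S24 it had 7.82, 8.59, 7.72 and 8.11 CPM. The last 4 libraries, at 7.72 to 8.59 CPM, did not overlap the other 8, at 16.96 to 25.5 CPM. Among those 8, the 95% counting intervals of S18 (14.5 to 19.8 CPM) and S20 (22.4 to 29.0 CPM) were apart. How many of all tested genes had these same 4 lowest libraries was not counted, so this split is not shown to be particular to SPRY1. S15, which was the lowest library for 8 of the other 9 genes, was the second highest for SPRY1. The share of all tested genes with S15 as their lowest library was not counted. S15 was among the 3 lowest in 27.9% of them. Per base of exon, the ratio of SPRY1 to SPRY2 was 2.36 in S20 and 0.217 in S22, a factor of 10.9. In S21 to S24, 20720 to 21295 genes had a count and the 50 most counted genes took 12.9% to 13.5% of the counts, against 22890 to 24681 genes and 11.0% to 11.8% in S13 to S20; the part of this difference in the SPRY1 values was not tested.

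The 2 SPRED genes had the same 6 lowest libraries as DUSP6 and differed in size. SPRED1, which encodes a partner of neurofibromin, lies at chr15:38252326-38357249 (plus strand). It held 8.04 to 17.2 CPM in S15, S16, S19, S20, S23 and S24, and 29.0 to 39.1 CPM in the other 6 libraries. Its range was 2.28 log2 units or 4.84-fold. SPRED2, a related RAS pathway inhibitor, lies at chr2:65310851-65432637 (minus strand). It held 25.5 to 35.5 CPM in those same 6 libraries and 40.5 to 50.5 CPM in the others. The range of SPRED2, 0.99 log2 units, was the smallest of the 10 and close to the middle of all tested genes, at percentile 51.1. It was also the gene just under the 1 log2 limit, and it passed that limit when libraries were scaled by TMM or by DESeq2 size factors. The nearest gene above the limit was SPRY1 with 1.72.

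The ETS factors had the widest ranges beside SPRY4 and DUSP6. ETV5, at chr3:186046308-186110318 (minus strand), had 27.3 CPM in S13, 51.6 in S14, 1.24 in S15, 6.47 in S16, 31.6 in S17, 64.95 in S18, 3.49 in S19, 10.0 in S20, 38.9 in S21, 54.5 in S22, 4.86 in S23 and 11.9 in S24. Its range of 5.66 log2 units (50.7-fold) was larger than that of 99.3% of the tested genes, and 14 counts in S15 set the low end. Without S15 it was 4.20. ETV4, at chr17:43527844-43579620 (minus strand), had 37.1 CPM in S13, 60.03 in S14, 3.89 in S15, 13.3 in S16, 43.8 in S17, 63.2 in S18, 6.09 in S19, 12.6 in S20, 65.5 in S21, 80.2 in S22, 10.8 in S23 and 21.2 in S24. The range of ETV4 was 4.35 log2 units or 20.4-fold. For ETV4 and for ETV5, every one of S15, S16, S19, S20, S23 and S24 lay below every other library. The per-base ratio of ETV5 to ETV4 was lowest in S15 with 0.198 and highest in S18 with 0.639, so ETV5 was below ETV4 in all 12 libraries and the pair did not keep a fixed ratio.

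**Figure D3:**
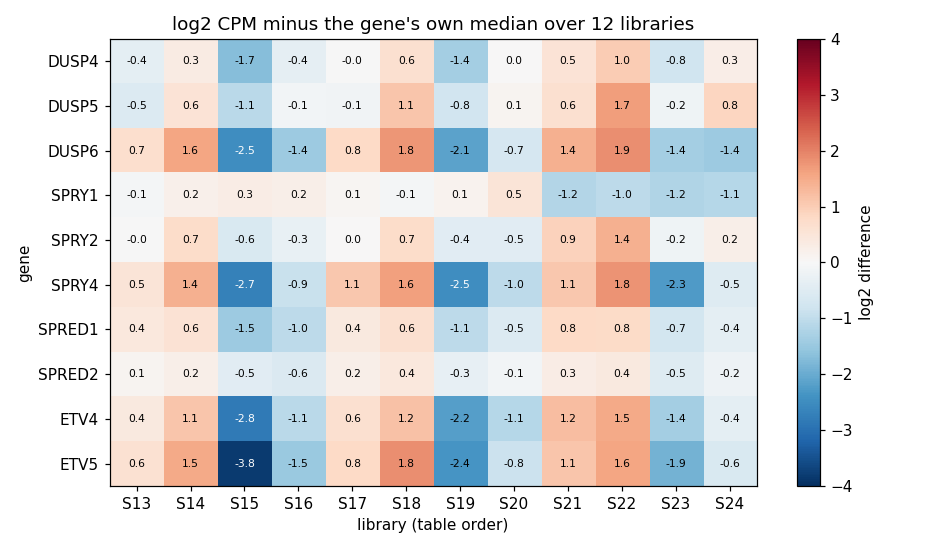
Rows are the 10 genes and columns the 12 libraries in table order; colour and number give log2 CPM minus the gene's own median over the libraries. DUSP6, SPRY4, ETV4 and ETV5 are blue in S15, S16, S19, S20, S23 and S24, and SPRY1 is blue only in S21 to S24 beyond 1 log2 unit.

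Per length, DUSP5 had the highest level of the 10 genes in 12 of 12 libraries, and SPRY4 had the lowest in 10, with SPRY1 lowest in S21 and S22. Median levels were 73.1 TPM for DUSP5, 53.7 for DUSP4, 33.3 for ETV4, 30.7 for SPRED2, 18.4 for SPRY1, 15.4 for SPRY2, 13.96 for ETV5, 13.85 for DUSP6, 11.3 for SPRED1 and 5.31 for SPRY4. The ranges over libraries overlapped for each pair of neighbours in this order. Within libraries, DUSP5 was above DUSP4 in 12 of 12 and SPRED1 above SPRY4 in 12 of 12, DUSP4 was above ETV4 in 10, and SPRED2 above SPRY1 in 10. ETV4 was above SPRED2 in 6 of 12 libraries and SPRY1 above SPRY2 in 6, SPRY2 was above ETV5 in 8 and DUSP6 above SPRED1 in 7, and ETV5 was above DUSP6 in 4 only although its median was higher. With unshared bases the median of DUSP6 would stand above that of SPRY1. Summed over the 10 genes, the level was lowest in S15 with 120 TPM and highest in S22 with 622 TPM.

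Except for SPRY1, the genes ordered the libraries alike. The 12 libraries form 66 pairs, and for each pair of genes the share of library pairs with the same order of CPM was taken; identical orders give 100%. Over the 45 pairs of genes the median share was 86.4%, and 34 pairs reached 80%. The share was not taken over pairs drawn from all tested genes, so this count is not shown to be particular to these genes. SPRY4 with ETV4 and SPRY4 with ETV5 had the highest share, 97.0%, and DUSP4 with DUSP5 had 93.9%. The 9 pairs under 50% were those of SPRY1, from 27.3% with SPRY2 to 40.9% with SPRED2. With DUSP6, 7 of the other 9 genes reached 80%, beside 8.77% of all other tested genes; DUSP5 had 78.8% and SPRY1 had 37.9%. Over all other tested genes the median share with DUSP6 was 45.5%. These shares describe 12 libraries that are not independent samples of a single condition, and libraries of the same treatment may share their levels.

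The set of low libraries was shared as well. S15, S16, S19, S20, S23 and S24 were the 6 lowest for DUSP6 and also for SPRY4, SPRED1, SPRED2, ETV4 and ETV5, which makes 5 of the other 9 genes. Of all other tested genes, 3.8% had the same 6 lowest libraries, and 3.40% had these 6 as their highest. The count of 5 was the same with TMM and DESeq2 scaling, and this measure was chosen after the values were seen. S15 was among the 3 lowest libraries in 9 of the 10 genes and in 27.9% of all tested genes, S19 in 8 and 23.3%, and S23 in 6 and 28%. S22 was among the 3 highest in 9 of the 10 genes and in 25.5% of all tested genes, and S18 in 8 and 28.3%.

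**Figure D4:**
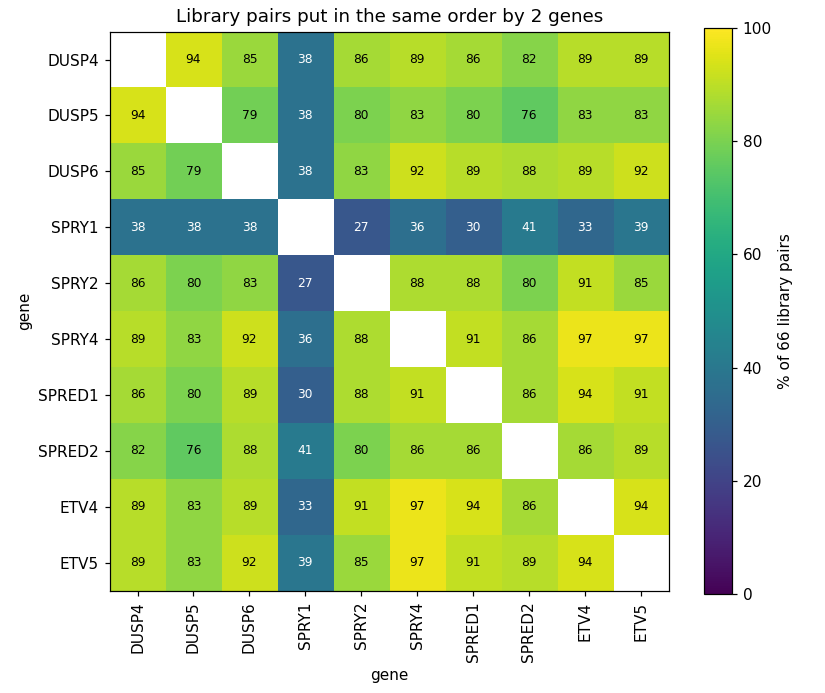
The number and colour in each cell give the percentage of the 66 library pairs that the gene of the row and the gene of the column put in the same order of CPM. The row and column of SPRY1 lie between 27.3% and 40.9%, and the cells among the other 9 genes lie between 75.8% and 97.0%.

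For each gene with a range of at least 1 log2 unit, the 3 most similar other genes were looked up, by the mean absolute difference between the log2 CPM profiles after each was centred on its own median. MYEOV was the nearest to DUSP6 (0.47), SPRY4 (0.45), ETV4 (0.29) and ETV5 (0.60), with 44.3 to 897 CPM over the libraries. FAM216A was among the 3 nearest to the same 4 genes. ETV4 also had PHLDA2 (0.44) and SPRY4 had PHLDA1 (0.64) among its nearest, and ETV5 had GPR3 (0.68). RP11-488P3.1 was the second nearest to DUSP6 (0.54). For the 4 genes with the widest ranges, another of the 10 was nearer than any of these: SPRY4 and ETV5 lay 0.28 apart, ETV4 and SPRY4 0.28, and DUSP6 and ETV5 0.33.

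The genes with smaller ranges had closer neighbours elsewhere. DUSP4 was most like TAF4B (0.13), the transcription factor gene MYC (0.17) and SLC43A3 (0.21). The nearest to DUSP5 were IRS2 (0.20), GJB2 (0.22) and AKAP12 (0.23). SPRY2 was nearest to NPAS2 (0.15), SLC45A3 (0.16) and SLCO4A1 (0.16), and SPRED1 to WT1 (0.19), TNFRSF10A (0.23) and CDCA7 (0.25). SPRY1 was nearest to KANSL1L (0.12), C21orf58 (0.13) and the DNA damage kinase gene ATM (0.14), and its nearest among the 10 genes, SPRED2, was 0.67 away. SPRED2 had the smallest range of the 10 and put only 40.9% of library pairs in the order of SPRY1, so this distance shows no likeness in order. Neighbours elsewhere were picked from all tested genes and those among the 10 from 9 only, so the 2 kinds of distance are not on equal terms.

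Other genes of the pathway were taken in 3 lists. Their counts are to be read beside the shares of all tested genes. Of those, 48.2% ranged by at least 1 log2 unit and 16.8% by at least 2, and 8.77% reached 80% with DUSP6. Of 10 family relatives, 8 had a mean of at least 1 CPM, and 7 of these had a range of at least 1 log2 unit, with a median range of 1.85. The 3 widest were ETV1, the third PEA3 factor, with 0.0884 to 11.7 CPM, SPRY3 with 0.977 to 6.89 CPM and DUSP9 with 0.506 to 2.32 CPM. The low end of ETV1, in S15, lies near the floor, so the size of its range depends on the 0.5 counts added. DUSP9 had at most 22 counts in a library. The smallest range, 0.84, was that of DUSP16, a phosphatase for JNK and p38. Of the 8, 2 put at least 80% of library pairs in the order of DUSP6, namely DUSP7, another cytoplasmic ERK phosphatase, with 90.9%, and ETV1 with 81.8%. The other 6 had 24.2% (DUSP10) to 60.6% (DUSP8).

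Of 22 other genes known to respond to ERK, 20 passed the same level, 19 had a range of at least 1 log2 unit and 15 of at least 2, with a median of 2.59. The widest were AREG, which encodes the EGFR ligand amphiregulin, with 1.86 to 412 CPM, the collagenase gene MMP1 with 0 to 6.79 CPM, whose range depends on the 0.5 counts added, and the early response gene EGR1 with 0.265 to 9.58 CPM. KLF10 had the smallest range, 0.86. Of the 20, 8 put at least 80% of library pairs in the order of DUSP6, beside 8.77% of all other tested genes. Of the 24 genes of the cascade and its regulators, 24 passed, with a median range of 0.59. A range of at least 1 log2 unit was reached by 4, against 48.2% of all tested genes, and of at least 2 by 0, against 16.8%. The widest were SOS2 (1.25), which encodes an exchange factor for RAS, HRAS (1.08) and the ETS factor gene ELF3 (1.08). Among the 24, 1 reached 80% with DUSP6, namely PTPN11 with 84.8%. At most 20% was shared by 4, beside 7.62% of all other tested genes. The ranges of single genes overlapped between the lists. Levels differed too: the lowest median level was 23.2 CPM in the cascade list and 0.821 CPM, for FOS, among the 20 ERK-responsive genes, and the part of counting noise in the wider ranges was not tested. CIC, the repressor of ETV4 and ETV5, ranged from 73.3 to 120 CPM.

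**Figure D5:**
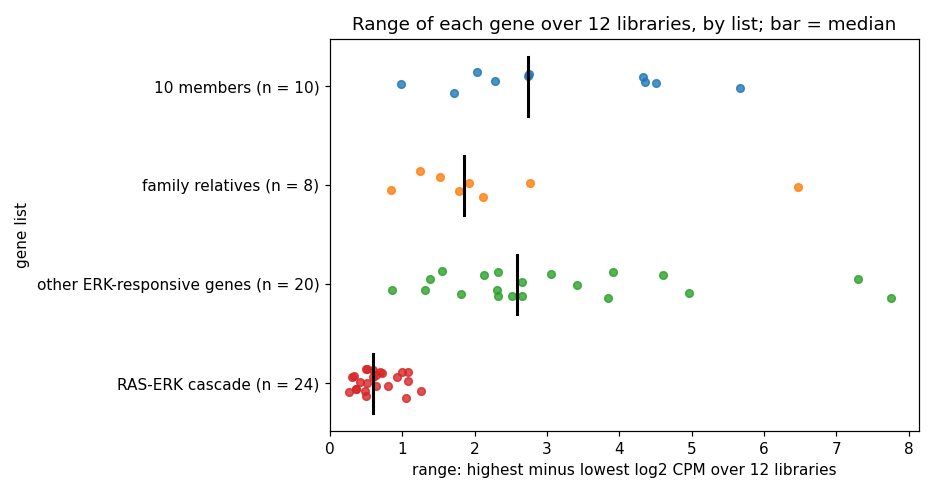
Each point is a gene with a mean of at least 1 CPM, placed by its range over the 12 libraries (highest minus lowest log2 CPM); black bars are medians, and vertical scatter only separates points. Medians are 2.74 for the 10 genes, 1.85 for 8 family relatives, 2.59 for 20 other ERK-responsive genes and 0.59 for 24 cascade genes.

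The cell line label was checked with markers. ERBB2 had 3869 to 9322 CPM, the neighbouring amplicon gene GRB7 842 to 1730 CPM, and the epithelial keratin gene KRT8 3892 to 8918 CPM. All 9 epithelial and amplicon genes listed for this check passed a mean of 1 CPM. The lowest of them was the keratin gene KRT19, with 13.7 to 38.3 CPM. PGR, the progesterone receptor gene, had 0 counts, and ESR1, the oestrogen receptor gene, had 4.07 to 26.0 CPM. Of 10 markers of blood, endothelial and stromal cells, 3 passed a mean of 1 CPM. These were PECAM1 with 28.0 to 77.9 CPM, VWF with 3.20 to 9.41 CPM and COL1A1 with 6.78 to 14.7 CPM. COL3A1 and DCN had 0 counts in every library. PTPRC had at most 7 counts in a library. The summed level of these 10 was 39.4 to 99.9 CPM, and its part in the values above was not tested.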

How the data were processed

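Whole-number fragment counts per gene name were deposited by the authors for 12 libraries. Per the file headers, they were made with featureCounts 1.4.6 in paired-end mode on GENCODE 25, with 24 alignment files in the command. Per the submitters' processing notes, Trim Galore 0.4.5, STAR 2.4 and SAMtools 1.2 were used, with GRCh38 as build. The labels' protocols name a directional kit, whereas the command has no strand option. Exonic lengths and coordinates are other values deposited in the same table.

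From the counts, CPM over the library total, log2 CPM with 0.5 counts added, ranges and TPM were computed with Python 3.11.15. The range and order measures were tested on simulated data. TMM factors came from edgeR 4.0.16 and size factors from DESeq2 1.42.0. No comparison of treatments and no test was made, because no count column could be given a treatment. The gene set, gene lists and limits were chosen with earlier results of these data known. Named beside the 10 genes are the 3 nearest genes of each gene ranging by at least 1 log2 unit, and the 3 widest and the narrowest gene of each pathway list; others were named after their values were seen, and some genes of these lists are not reported here. As a check for a library entered more than 1 time, the lowest chi-square per gene over the 66 library pairs was 8.85, which says nothing about which libraries replicate each other.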

Additional observations from a re-analysis of the deposited data

How the results depend on the processing

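Of the 10 genes, 9 ranged by at least 1 log2 unit; the count was 9 or 10 under every alternative run, with 10 under TMM and DESeq2 scaling, where SPRED2 ranged by 1.16 and 1.13. These scalings moved libraries by -0.08 to 0.15 log2 units (TMM) and -0.07 to 0.14 (DESeq2 size factors). The number of genes that ordered the libraries like DUSP6 was 7, or 8 under both scalings, and 7 to 8 with each library left out. Of all tested genes, 6889 ranged by at least 1 log2 unit. The number was 25570 (77.6% of 32968 genes) with no filter on low counts and 3799 (34.6% of 10975) at a mean CPM of at least 5; these filters change which genes are tested. Leaving out each library gave 6484 to 6833, and the second highest minus the second lowest library gave 4629 (32.4%), with 9 of the 10 genes. Without S21 and S22, an alternative added after the data were seen, the counts were 9, 5813 and 7.

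Single ranges moved by more than their counting error in 17 of 160 values from the alternatives, 14 of them downwards. The downward moves all came from settings that can only keep or narrow a range: a library left out, or the second highest minus the second lowest. The upward moves were DUSP4 (2.95) and DUSP5 (2.97) under TMM and DUSP4 (2.91) under DESeq2 size factors. Without S15, ETV5 ranged by 4.20, ETV4 by 3.71, DUSP5 by 2.42, DUSP4 by 2.39 and SPRED1 by 1.87. Without S22, DUSP4 ranged by 2.34, DUSP5 by 2.21 and SPRY2 by 1.55. SPRY2 ranged by 1.87 without S15, a move within its counting error. The ranges of DUSP6 (3.99 without S15, 4.24 without S22) and SPRY4 (4.27 and 4.35) moved by less than their counting error. With the second highest minus the second lowest library, ETV5 ranged by 3.95 and DUSP5 by 1.87. No paired analysis was possible because the columns bear only library names, without replicate numbers. Levels of a few CPM, such as SPRY4 in S15, rest on 12 counts.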

Other observations

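The libraries differed from each other across the other genes too. Over 9587 genes with a mean of at least 10 CPM, the 10 genes left out, the root mean square difference in log2 CPM between 2 libraries was 0.24 to 0.86. Each library's nearest was S17 for S13 and S13 for S17 (0.26), S18 for S14 and S14 for S18 (0.26), S19 for S15 and S15 for S19 (0.24), and S20 for S16 and S16 for S20 (0.28). S21 and S22 were nearest to each other (0.29), as were S23 and S24 (0.29). The first 3 principal components held 57.5%, 15.5% and 12.7% of the variance. On the first component the libraries S13 to S20 had loadings of 0.08, -0.05, 0.40, 0.31, -0.02, -0.13, 0.35 and 0.27, and S21 to S24 had -0.46, -0.54, -0.09 and -0.12. What treatment or batch these libraries represent is not given by the labels and was not inferred.

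Sorted by level, the values of any gene have a widest step, which is given here beside the next widest. For DUSP6 it was 1.34 log2 units, beside 0.70, between 8.72 CPM in S20 and 22.1 CPM in S13, with S15, S16, S19, S20, S23 and S24 below it. SPRED1 had its widest step, 0.75 beside 0.41, between the same 2 sets of libraries, from 17.2 CPM in S24 to 29.0 CPM in S17. In SPRED2 the widest step was 0.19 beside 0.14, between 35.5 CPM in S20 and 40.5 CPM in S13, whose counting intervals overlap. SPRY1 had a step of 0.98 above S21, S22, S23 and S24, between 8.59 and 16.96 CPM, and its next widest step was 0.23. In SPRY4 the widest step, 1.22 beside 1.01, lay above S15, S19 and S23. In ETV4 (0.83 beside 0.81) and DUSP4 (0.58 beside 0.41) it lay above S15 and S19, and in ETV5 (1.498 beside 1.1999) it lay above S15. The same 4 libraries that were lowest for SPRY1 held neither the lowest nor the highest 4 levels of DUSP6 as a set: S21 and S22 were high and S23 and S24 low.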
